A study of Mus musculus with 4 samples.

Results

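Dppa2, Dppa3, Dppa4, Dppa5a, Utf1, Tdgf1, Prdm14, Tcl1 and Tbx3 are marker genes of mouse embryonic stem (ES) cells that lie outside the core transcription factor network. They were chosen by name, and a peak of the helicase DHX9 was counted for a gene when the peak's midpoint lay inside its gene body on build mm10. The 9 genes, of 49980 placed in the gene table used, held 43 of the 59563 peaks deposited. The peaks were called from FLASH, a CLIP-seq method in which ultraviolet light crosslinks RNA to protein and the RNA that comes down with an antibody is sequenced. There were 2 pulldowns with a rabbit antibody to DHX9 and 2 with control rabbit IgG, labelled as biological replicates A and B of each. All 4 came from WT26, a male feeder-independent ES line of strain C57BL/6x129sV grown with the cytokine LIF. The labels name no engineered allele and no treatment, and the results describe 1 cell line.

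DHX9 unwinds RNA duplexes and DNA-RNA hybrids and binds structured RNA in the nucleus, including base-paired copies of short retrotransposons in introns. The marker genes encode proteins of several kinds. Dppa2 and Dppa4 are partner proteins with a DNA-binding SAP domain that sit on chromatin and help activate genes of the early embryo, Dppa3 (also Stella) guards methylation of the maternal genome, and Dppa5a has an RNA-binding KH domain. Utf1 is a chromatin protein of pluripotent cells, Tdgf1 (Cripto) is the membrane co-receptor of Nodal, Tcl1 is a coactivator of the kinase AKT, and Prdm14 and Tbx3 are transcription factors that help keep ES cells undifferentiated.

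The deposited list gives positions and strands alone, merged over the series. It holds no score, read count or value per pulldown, so neither a between-replicate error nor an IgG level can be set beside a peak, and the depth is unknown. Amounts of RNA are not in the list, and a gene that is little transcribed cannot be told apart from one that is transcribed and not bound. Of the ES cell markers checked, 6 of 7 held a peak, against 22.8% of protein-coding genes. Nanog held 13, Pou5f1 12 and Zfp42 24, and Dppa5a was the exception. Dppa5a and Tdgf1 are also among the marker genes described here. None of 6 feeder fibroblast markers and none of 6 markers of differentiated lineages held a peak. Sets this small cannot set a count of none apart from the share over protein-coding genes. Fn1, a fibronectin gene in a longer list of 12 fibroblast markers, held 63.

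RefSeq start windows (GRCm38.p6, the assembly of mm10) of 250 bases before and 50 bases after the annotated start were at hand for 3 of the 9 genes, Utf1, Tdgf1 and Tcl1. They are shown because a DHX9 peak lay over the start of Utf1 and none over the starts of the densely covered Tdgf1 or the empty Tcl1. An uncovered start was the usual case. Of 3862 protein-coding genes with a start window and a peak on their own strand, 344 (8.91%) had a same-strand peak over the window. Each is written 5′ to 3′ on the strand of the gene, and capitals mark the bases that lay inside a peak on either strand.
Utf1 (chr7:139943606-139943905, plus strand): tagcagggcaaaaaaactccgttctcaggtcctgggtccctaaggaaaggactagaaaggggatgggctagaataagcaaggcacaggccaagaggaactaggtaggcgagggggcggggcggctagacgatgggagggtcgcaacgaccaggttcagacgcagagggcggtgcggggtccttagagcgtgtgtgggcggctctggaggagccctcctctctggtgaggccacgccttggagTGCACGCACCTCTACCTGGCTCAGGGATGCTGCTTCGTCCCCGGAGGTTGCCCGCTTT
Tdgf1 (chr9:110946109-110946408, minus strand): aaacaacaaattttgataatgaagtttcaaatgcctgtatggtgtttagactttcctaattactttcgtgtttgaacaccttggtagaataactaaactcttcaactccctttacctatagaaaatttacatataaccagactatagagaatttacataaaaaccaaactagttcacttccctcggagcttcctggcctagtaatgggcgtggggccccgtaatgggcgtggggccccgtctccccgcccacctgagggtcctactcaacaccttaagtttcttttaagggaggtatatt
Tcl1 (chr12:105222688-105222987, minus strand): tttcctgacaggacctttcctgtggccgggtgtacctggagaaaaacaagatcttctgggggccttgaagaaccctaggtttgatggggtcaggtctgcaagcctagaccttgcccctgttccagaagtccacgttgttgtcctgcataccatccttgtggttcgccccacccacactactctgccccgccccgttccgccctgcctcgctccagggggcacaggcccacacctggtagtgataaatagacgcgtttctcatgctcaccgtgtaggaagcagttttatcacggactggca
In the Utf1 window the peak covered 58 of the 300 bases, from base 243 on, and it lay on the minus strand, opposite to the gene. The Utf1 window had a GC content of 62%, Tcl1 56.7% and Tdgf1 41.7%, against a median of 52.7% (quartiles 45.7 and 61.7%) over all 32851 windows of the table. The GC box letters GGGCGG, searched on both strands, matched 4 times in Utf1, at bases 113, 118, 166 and 195, where the first pair overlap by 1 base. They matched once in Tdgf1 and at 2 places in Tcl1, and 35.7% of all windows held at least 1 match. Neither CCAAT (in 37.4% of all windows) nor TATAAA (in 13.6%) was found on either strand of these 3 windows.

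Of the 9 marker genes, 5 held a peak, against 4989 of 21900 protein-coding genes (22.8%). Tdgf1 held 17, Dppa4 12, Dppa2 9, Utf1 4 and Tbx3 1, while Dppa3, Dppa5a, Prdm14 and Tcl1 held none. At least 3 peaks were present in 4 of the 9, against 14.8% of protein-coding genes. Dppa2, Dppa4 and Tdgf1 together held 38 of the 43. The share of the 9 had a wide 95% Wilson interval, 26.7 to 81.1%, which covers counting error only, and the genes were not matched on expression. The interval treats the 9 as independent random draws. They were chosen by name with earlier results of these data known, and Dppa2 and Dppa4 are neighbours. It is therefore not a test against the 22.8%.

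**Figure D1:**
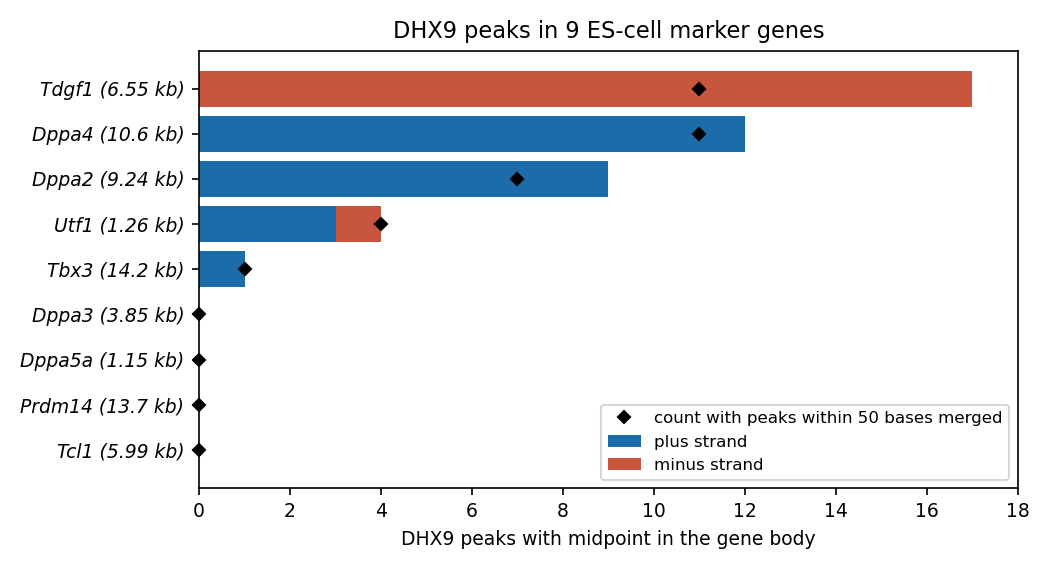
Number of DHX9 peaks with their midpoint in each of the 9 gene bodies (horizontal axis), with gene length in kb beside each name; bars are split by strand and diamonds give the count after peaks within 50 bases on a strand were merged. Tdgf1 had 17 peaks, all on the minus strand, and 11 after merging; 4 genes had none.

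Longer genes held peaks more often, so each marker was also read against protein-coding genes of like length. Of genes under 2 kb, the class of Utf1 and Dppa5a, 2.73% held a peak; of those from 2 to 5 kb, the class of Dppa3, 7.51% did. The share was 14.4% from 5 to 10 kb (Dppa2, Tdgf1 and Tcl1) and 24.8% from 10 to 20 kb (Dppa4, Prdm14 and Tbx3). Tdgf1 had more peaks than all but a few genes of its class: 12 of 2891 had more, and the median of those with any peak was 3. In the class of Utf1, 5 of 2596 genes held more than its 4 peaks, and the median of those with a peak was 1. Both strands were counted, and 3 of the 4 peaks of Utf1 lay on its own strand. Dppa2 was exceeded by 63 of 2891 genes and Dppa4 by 166 of 3923. The single peak of Tbx3 is the fewest a gene with a peak can have, and 760 of 3923 genes of its class held more.

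**Figure D2:**
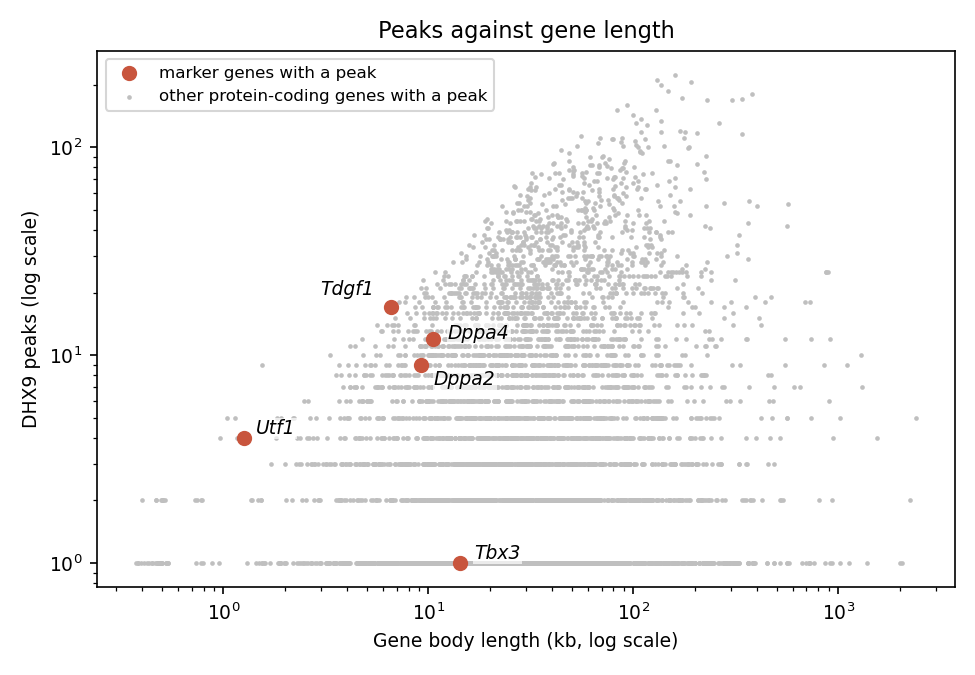
Number of DHX9 peaks (vertical, log scale) against gene body length in kb (horizontal, log scale) for the protein-coding genes with at least 1 peak; large points are the 5 marker genes with a peak. Utf1 (4 peaks in 1.26 kb, both strands counted) and Tdgf1 (17 in 6.55 kb) lie at the upper edge of the cloud for their lengths. Tbx3 (1 in 14.2 kb) lies at its floor.

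Tdgf1, the Nodal co-receptor gene, carried peaks along nearly its whole body (chromosome 9, 110939608 to 110946158, minus strand). All 17 were on the minus strand, the strand of the gene, and together they covered 4598 of its 6551 bases (70.2%). Read along the gene, the first midpoint lay 382 bases after the start and the last 257 bases before the end. The widest peak had 685 bases (110941105 to 110941789) and the narrowest 104. Gaps between neighbouring peaks had a median of 67 bases, ranged from 1 to 365, and were small enough that merging within 50 bases left 11. At 2.6 peaks per kb Tdgf1 ranked 11 among the 3250 protein-coding genes with at least 3 peaks, whose median was 0.351 per kb. After merging, its 1.68 per kb ranked 29 of 3196. The peaks did not stop at the annotated end: 3 more on the minus strand followed, with midpoints 473, 771 and 947 bases past it, in no annotated gene.

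Tdgf1 acts in the Nodal pathway, and 5 of 16 listed genes of that pathway (31.2%) held a peak, against 22.8% of protein-coding genes. The median was 0 peaks in the list and 0 over all protein-coding genes. They were Smad2, an intracellular transducer, with 15, the ligand gene Nodal with 8, the related ligand gene Gdf3 with 5, and the receptor genes Acvr2b and Acvr1b with 2 and 1. The other Cripto-type co-receptor gene Cfc1, the receptor genes Acvr1c and Acvr2a and the antagonist genes Lefty1 and Lefty2 held none. Tdgf1 had more peaks than any of the 16, in a gene body shorter than those of Smad2 (70.7 kb) and Nodal (7.37 kb).

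Dppa4 and Dppa2 lie one after the other on chromosome 16, and plus-strand peaks lay in both genes and, with gaps, in the space between them. Dppa4 (48283735 to 48294292) held 12 peaks and Dppa2 (48310274 to 48319513) held 9, and none of these was on the minus strand. The gene table used gives no strand for either gene, so positions are given from the lower end. In genes with a known strand whose peaks lay in no other gene, 34416 of 34782 peaks (98.95%) were on the strand of the gene.

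Within Dppa4 the peaks fell in 2 groups with a lone peak between them. The first 4 had midpoints 1542 to 2264 bases from the lower end of the gene, the fifth stood alone at 3937, and the other 7 lay from 5684 to 8845. The gaps on either side of the lone peak were 1551 and 1621 bases, against a median gap of 155 in the gene. Most of these peaks were narrow, with a median of 146 bases, and 1 reached 472 bases (48289643 to 48290114). They covered 21% of the gene body, at 1.14 peaks per kb.

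Dppa2 differed in where its peaks lay. All 9 had midpoints between 1732 and 5114 bases from the lower end, and 8 of the 9 lay before the middle of the gene body. The last 3943 bases held no peak. The widest, of 501 bases (48311756 to 48312256), was the first, and the median width was 229 bases. Coverage was 24.6% of the body, and the density of 0.974 per kb ranked 578 among the 3250 genes with at least 3 peaks, against a rank of 438 for Dppa4.

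Between the annotated bodies of Dppa4 and Dppa2 are 15981 bases with no annotated gene, and these held 13 peaks, all on the plus strand. The first of them began 1956 bases after the last peak within Dppa4, a wider gap than any inside that gene (largest 1621). Of the 13, 9 had their midpoint within 5 kb of the end of Dppa4, at distances of 447 to 3619 bases. That is 1.8 per kb with no peaks merged. The other 4 were spread over the remaining stretch at 0.364 per kb, at 5476, 6329, 11995 and 15041 bases. The widest gap, of 5528 bases, separated the last pair of these from the rest, and the last of them lay 941 bases before Dppa2. Counting both genes and the space between, 34 peaks spanned 30.4 kb with a median gap of 248 bases, and none was on the minus strand.

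**Figure D3:**
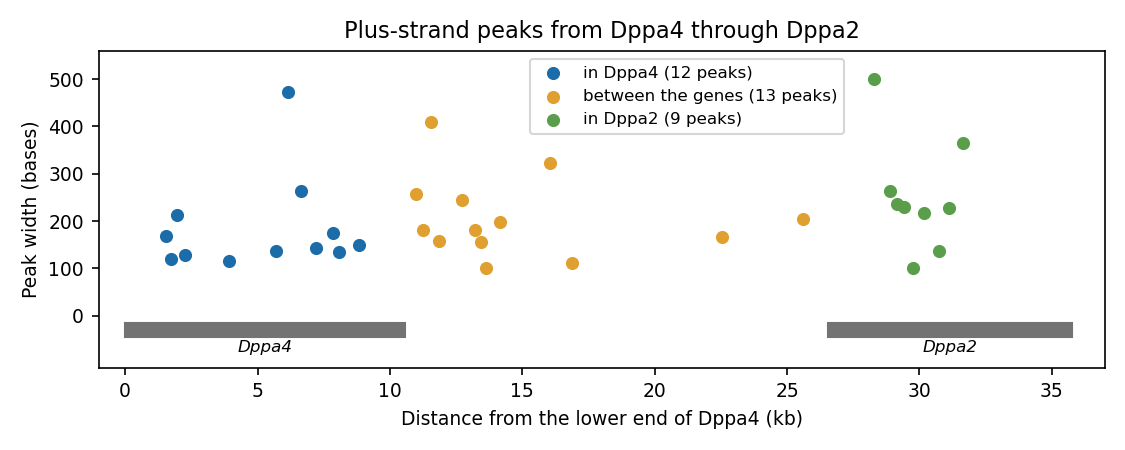
Position of each plus-strand peak, as distance in kb from the lower end of Dppa4 (horizontal), against its width in bases (vertical); grey bars are the 2 gene bodies. Peaks stop before the end of Dppa4, start again past it, thin out, and resume inside Dppa2, whose far end is empty.

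Peaks in no gene just past the end of a gene were uncommon in the list as a whole. Among protein-coding genes with a peak on their own strand, 263 of 4793 (5.49%) also had a peak on that strand, in no gene, within 10 kb past the end. Of the 5 marker genes with a peak, Dppa4 and Tdgf1 did, with 11 and 3 such peaks, and Dppa2, Utf1 and Tbx3 did not. With 11, Dppa4 stood among 12 genes with as many or more. The highest count was 18, and the median of the 263 was 2. These are counts of peaks as listed, and merging those within 50 bases would lower both the 11 and the 3. A gene with another gene close past its end can score few or none by this count. Dppa4 is followed by 15981 bases with no annotated gene, and genes were not matched on such space. Where no strand was annotated, the strand holding most peaks was used.

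Utf1, the chromatin protein gene, is only 1257 bases long (chromosome 7, 139943856 to 139945112) and held peaks on both strands. On the plus strand, its own, it had 3 peaks: 278 bases wide (139944082 to 139944359), 325 bases (139944550 to 139944874) and 128 bases (139944989 to 139945116). The last of these ran past the annotated end. The fourth peak, of 186 bases, was on the minus strand (139943848 to 139944033) and reached upstream of the annotated start; its part up to base 139943905 is the stretch in capitals above. Together the 4 covered 72% of the gene, and 48 bases separated the minus-strand peak from the first plus-strand peak. Outside the gene the nearest peak was 8.49 kb away, in the noncoding gene Gm16201.

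At 3.18 peaks per kb Utf1 had the highest density of the 9 genes with both strands counted and ranked 6 among the 3250 protein-coding genes with at least 3 peaks, and 2 of 3196 after merging. On its own strand alone it had 2.39 per kb, below the 2.6 of Tdgf1. A density in so short a gene rests on a few peaks. Among protein-coding genes with an annotated start window and a peak on their own strand, 36 of 3862 (0.932%) had an opposite-strand peak over the window. Utf1 was one of these and Tdgf1 was not. All 17 peaks of Tdgf1 and 3 of the 4 of Utf1 lay on the annotated strand of the gene. Dppa2, Dppa4 and Tbx3 have no strand in the gene table used. Their peaks were all on the plus strand, in Tbx3 a single one.

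**Figure D4:**
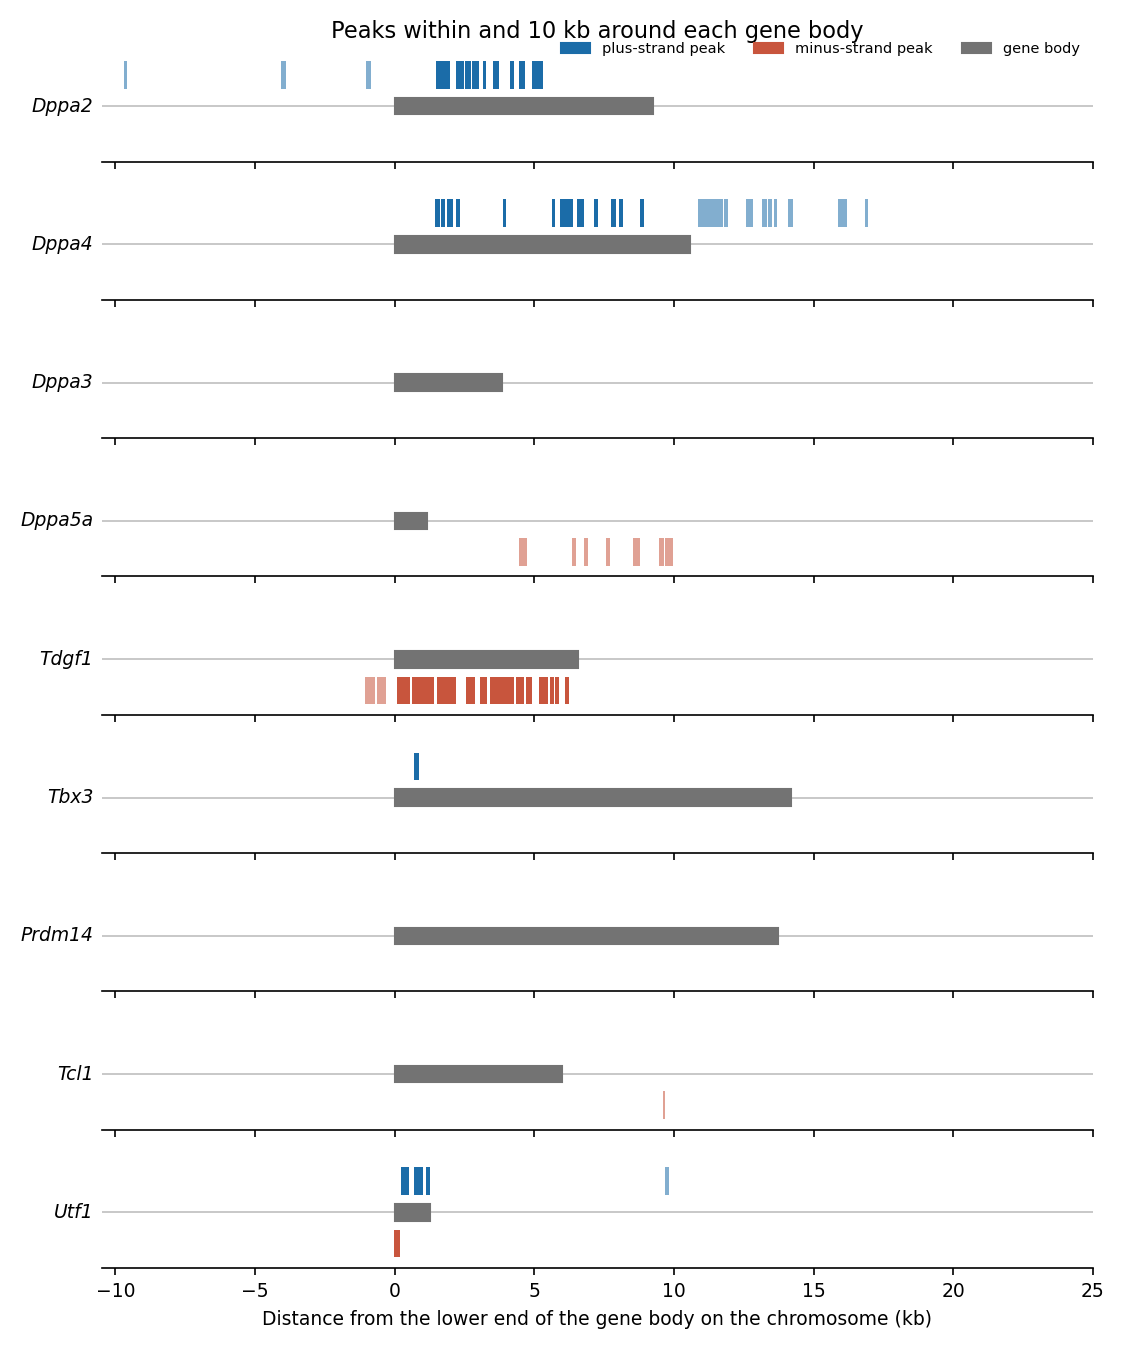
Peaks in and within 10 kb of each of the 9 gene bodies, drawn to scale against the distance in kb from the lower chromosomal end of the gene; plus-strand peaks are above the line, minus-strand peaks below it, and paler peaks lie outside the gene. Tdgf1 is nearly filled, Dppa4 and Dppa2 carry plus-strand peaks, Utf1 has peaks on both strands, and the bodies of Dppa3, Dppa5a, Prdm14 and Tcl1 are empty.

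Tbx3, a T-box transcription factor gene of 14.2 kb (chromosome 5, 119670534 to 119684724), held 1 peak of 163 bases (119671226 to 119671388). It was on the plus strand, 773 bases from the lower end of the gene, and covered 1.15% of the body. That stretch also lies in the gene body of Tbx3os1, a long noncoding RNA gene on the minus strand, so the peak was on the strand opposite to Tbx3os1. The nearest peak outside Tbx3 was 17.4 kb away, on the minus strand, inside Tbx3os1 and Gm16064. Of 16 other genes of the T-box family, 1 held a peak (6.25%, against 22.8% of protein-coding genes): Mga, a large factor with a T-box and a MYC-like dimerisation domain, with 37. Tbx1, Tbx2 and Tbx4 were among the 15 without one.

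The 4 empty genes had different surroundings. A peak lay within 10 kb of Dppa5a and of Tcl1 but not of Dppa3 or Prdm14; among protein-coding genes without a peak, 11.8% had one within 10 kb.

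Dppa5a, the KH-domain gene of 1148 bases (chromosome 9, 78367052 to 78368199), held no peak, yet 7 lay close by, all on the minus strand. Their midpoints were 3.45 to 8.67 kb from its higher end, in the 8703 bases that separate it from Ooep, an oocyte and early-embryo gene (78376903 to 78378588, minus strand). On that strand these peaks lay past the end of Ooep, the closest with its midpoint 32 bases and the farthest 5.25 kb from it. The closest overlapped the body of Ooep by 106 bases, although no midpoint lay inside. The 7 were 121 to 275 bases wide.

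Tcl1, the AKT coactivator gene (chromosome 12, 105216753 to 105222737, minus strand), had a single peak nearby. It was on the minus strand with its midpoint 3.67 kb before the annotated start, outside the window printed above and in no gene. The paralogs Tcl1b1, Tcl1b2, Tcl1b3, Tcl1b4 and Tcl1b5 and the related Mtcp1 held none, and of the AKT kinase genes Akt2 held 2 and Akt1 none.

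Dppa3 (chromosome 6, 122626424 to 122630271) had its nearest peak 16.8 kb away, inside Gdf3 (122605403 to 122610087), which held 5 peaks, all on the minus strand. Prdm14 (chromosome 1, 13113428 to 13127163) is the longest of the 4 empty genes at 13.7 kb, and its nearest peak was 27.9 kb away, on the plus strand, in no gene; the closest gene body to that peak was the noncoding Gm39592, at 5.14 kb. Cbfa2t2, the corepressor partner of PRDM14, held 131 peaks, while the family members Prdm10 and Prdm15 held 2 and 1. Prdm1, Prdm2 and Prdm4 held none.

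Across the marker genes peak widths were close to those of the whole list. The 43 peaks had a median width of 216 bases (quartiles 143.5 and 284), against 196 bases (146 and 268) for all 59563. Gene medians ran from 146 bases in Dppa4 to 248 in Tdgf1. Only 3 of the 12 peaks of Dppa4 were at least as wide as the median of the whole list, against 11 of 17 in Tdgf1 and 7 of 9 in Dppa2.

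**Figure D5:**
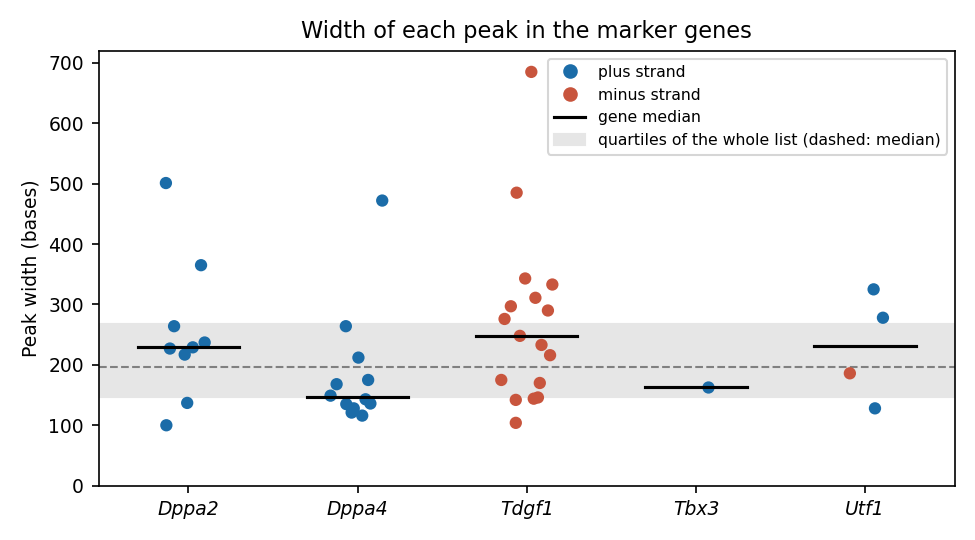
Width in bases of each of the 43 peaks (points, coloured by strand), by gene; black bars are gene medians, the grey band spans the quartiles of all peaks in the list (146 to 268 bases) and the dashed line is their median (196). Peaks of Dppa4 sit mostly below the dashed line.

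Among 20 other genes listed for comparison as ES cell markers, 13 held a peak (65%), against 22.8% of protein-coding genes. The median was 7 peaks, against 0 over all protein-coding genes. The list also holds the oocyte and early-embryo gene Ooep and genes with wider roles, such as Mybl2 and Rif1. The 65% is therefore not a share of genes particular to ES cells. The most were in Mybl2, a cell cycle transcription factor gene, with 58, Rif1, which acts in replication timing and DNA repair, with 50, the zinc finger factor gene Sall4 with 44 and the threonine dehydrogenase gene Tdh with 38. Of the 38 peaks of Tdh, 19 lay in no other gene, fewer than the 24 of Zfp42. Lefty1, Lefty2 and Nr0b1 were among the 7 without one. In a list of germline and early-embryo genes linked to Dppa2, Dppa4 or Dppa3, 2 of 11 held a peak (18.2%, near the share of 22.8% over protein-coding genes): the maintenance methyltransferase gene Dnmt1 with 33 and Uhrf1, which recruits it and is bound by Dppa3, with 13. Dazl, Ddx4 and Mael held none, nor did Dppa1, which shares the family's name. None of 16 trophoblast and other lineage markers held a peak (Cdx2, Eomes and Gata3 among them). Of 12 fibroblast markers 1 did (8.33%), the Fn1 named above, while Col1a1, Col1a2 and Col3a1 held none. No test was run on these lists, and their genes were not matched to the markers on length or expression.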

How the data were processed

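The series measured RNA bound to DHX9 in WT26 mouse ES cells, with 2 DHX9 and 2 IgG pulldowns. PEAKachu called the peaks, per the file's source column. Per the submitters' processing notes, Bowtie2 2.2.6 and the builds hg19 and mm10 were used, and mm10 was taken for this mouse list. The version and settings of PEAKachu and its use of the IgG control were not given in the sources used here. The authors deposited 1 list with no other measurement than the first base, last base and strand of each peak; the score field is empty throughout. Pulldowns therefore could not be compared, no test was run, and the depth is unknown.

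Each peak counted for any gene whose body (RefSeq table of GRCm38.p6) held its midpoint, whatever the strand. The strand of a gene was taken from the RefSeq start-window table, or from the strand with most peaks where that table has no entry. Distances run from a gene's end to a peak's midpoint. Counting was checked on simulated data. Genes named were the 9 markers, up to 4 members of each related list with most peaks and up to 3 without, and the genes at or nearest to flanking peaks; Nanog, Pou5f1, Zfp42, Acvr1b, Lefty1, Lefty2, Dppa1, Ooep, Akt1, Tcl1b4, Tcl1b5 and Mtcp1 were named outside that rule, after their values were seen. The members and lists were chosen with earlier results of these data known. One listed gene, Dux, was not in the table, and some genes named by the rule are not reported here. Python 3.11.15, pandas 2.3.3, numpy 2.4.6 and scipy 1.17.1 were used.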

Additional observations from a re-analysis of the deposited data

How the results depend on the processing

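Of 62 values recomputed under alternatives, 52 stayed within 1.5 times the count, or within the spread for the other values, and 10 moved. When peaks narrower than the median of the list were left out, the total was 23 in place of 43, with Dppa4 at 3, Utf1 at 2, Tdgf1 at 11 and Tbx3 at 0. Merging peaks within 50 bases left 11 in Tdgf1, and leaving out peaks that also lie in another gene left Tbx3 with 0. The 4 empty genes stayed at 0 under all 5 alternatives for the count per gene. Leaving out narrow peaks, peaks on the other strand or peaks in another gene cannot raise a count of 0, and merging hardly can. Only counting any overlap put these zeros to a trial, so most of them were fixed in advance. They are among the 52 values that stayed. The share of protein-coding genes with a peak was 19.6% for genes under 50 kb and 14.8% with at least 3 peaks required. Flanks of 50 kb held 46 peaks and flanks of 10 kb held 25. No paired analysis was possible because the deposited list carries no value per replicate, and no replicate could be left out for the same reason. A weak peak cannot be told from a strong one, since the list has no score.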
